A study of Danio rerio with 20 samples.

Results

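The effect of the phosphatidylinositol-3 kinase (PI3K) inhibitor LY294002 on blood cells was examined in the caudal hematopoietic tissue (CHT) of zebrafish embryos at 5 days post fertilization (dpf). The samples were 2 plates of cells from LY294002-treated embryos and 2 plates from control embryos, all sorted on sort day 13. Both groups carried the transgenes kdrl:mCherry and cd41:eGFP. The control plates are labelled wildtype, while the labels of the treated plates give the treatment and no genotype. According to the methods of the study the control embryos received the solvent DMSO. A cell was a well with at least 1500 unique molecular identifiers (UMIs, which count transcripts) over zebrafish genes. This left 221 and 280 cells on LY294002 plates 1 and 2 and 275 and 267 cells on control plates 1 and 2, in all 1043 of the 6116 cells of the series. According to the study the CHTs of each group were pooled before sorting, and it describes no separate pools. The plates of a group may thus be parts of 1 pool, and the design shows no replication over batches of embryos. All p-values below measure the spread between plates only and do not cover a spread between embryos or pools. The hours during which the sorted embryos were bathed in LY294002 are not given in the sources used here. For its imaging of later stages the study ended the treatment before 5 dpf, so that PI3K may no longer have been inhibited at sorting. The labels refer to a plate layout for which wells the study used. It was not used here, and all wells above the minimum were kept.

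The CHT is the embryonic niche in the tail of the zebrafish where hematopoietic stem and progenitor cells (HSPCs) from the aorta settle and multiply before they move to the thymus and kidney, and it is often compared with the mammalian fetal liver. PI3K phosphorylates membrane lipids in response to growth factors and thereby activates Akt and mTOR, which promote growth, protein and lipid synthesis and survival, and which hold FoxO transcription factors outside the nucleus. LY294002 reached the whole embryo and is known to inhibit mTOR as well as PI3K.

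Depth differed between the groups. Median UMIs per cell were 6554 and 6313 on the LY294002 plates, against 8274 and 9438 on the control plates, a ratio of means of 0.726 (exact permutation test, two-sided, p = 0.33, the smallest that 2 plates against 2 allow). After every cell had been thinned to 1500 UMIs, the median number of genes per cell was 607 and 589.5 on the LY294002 plates and 680 and 650 on the control plates (exact p = 0.33). The ratio of endogenous to spike-in UMIs was 46.1 and 24.1 on the LY294002 plates and 19.3 and 20.3 on the control plates. Mitochondrially encoded genes took 13.5% and 12.7% of UMIs on the LY294002 plates and 10.1% and 10.0% on the control plates. The part of these differences in the results below was not tested beyond the fits on cells thinned to 1 depth. The genes of the sort reporters could not check the gate, since kdrl could not be matched to a row of the files and itga2b, which encodes cd41, had 1 and 0 UMIs on the LY294002 plates and 1 and 0 UMIs on the control plates.

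RNA of skeletal muscle had the largest median difference of the 38 gene lists read here (log2 fold change of -3.03 over 20 genes tested). The summed level of 22 muscle genes, such as the actins, myosins and parvalbumins of fast fibres, was 3729 and 400 CPM (UMIs scaled to a common total per plate) on the LY294002 plates, against 30126 and 6449 CPM on the control plates. The plates of the groups did not overlap, but plate 1 of each group lay well above plate 2. The same order was seen in wells with under 500 UMIs, which hold little but free RNA, with 4998 and 226 CPM on the LY294002 plates and 27342 and 8182 CPM on the control plates. Wells with at least 4% of their UMIs from these genes numbered 2 and 1 on the LY294002 plates and 2 and 1 on the control plates. A single well of control plate 1 held 249815 UMIs, 8.71% of all UMIs of the cells of that plate. Muscle RNA lay in every class of cells (plot of muscle genes by class), so that the results below were also computed without these 6 wells and without the 219 genes that mark them.

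**Figure D1:**
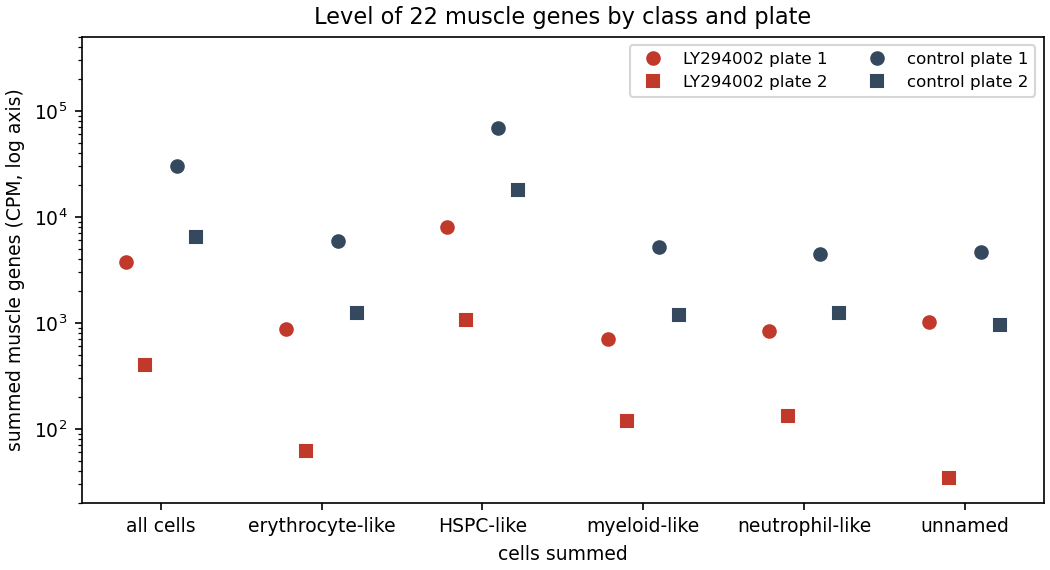
Summed level of 22 muscle genes in CPM (log axis) in all cells and in each class of cells, for LY294002 plates 1 and 2 and control plates 1 and 2. Plate 1 lies above plate 2 in each group and class, and both LY294002 plates lie below both control plates everywhere but in the unnamed class.

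Cells were grouped into classes by k-medoids clustering with 5 clusters, named from marker genes. Erythrocyte-like cells (416) were led by globin genes, cahz and alas2, and all 6 erythrocyte progenitor markers were raised in them. HSPC-like cells (296) were led by rhag, blf, npm1a and myb. Raised in them were 12 of 17 HSPC markers and also all 8 thrombocyte/erythrocyte progenitor markers. The marker scores of these lists were close (0.631 and 0.57). No separate cluster of thrombocyte/erythrocyte progenitors formed here, so that this class may hold both kinds of cells. The study has separate clusters for them, with HSPCs overrepresented and thrombocyte/erythrocyte progenitors underrepresented in treated embryos. Results of this class are therefore not read as those of HSPCs alone. Myeloid-like cells (251) were led by tmsb4x, cebpb, crema and lcp1, with all 9 myeloid progenitor markers raised. Neutrophil-like cells (40) were led by lyz, npsn and mpx. A cluster of 40 cells led by keratin genes stayed unnamed.

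Shares of the classes are given as values, since with 2 plates against 2 the exact test could pass no difference of any size. HSPC-like cells were 33.5% and 26.8% of cells on the LY294002 plates, against 25.1% and 29.2% on the control plates, so that the groups overlapped (exact p = 0.667, adjusted p = 0.667). A shift between HSPCs and thrombocyte/erythrocyte progenitors within this class could not be seen in its share. Myeloid-like cells were 25.3% and 26.8% on the LY294002 plates and 22.2% and 22.1% on the control plates, with the groups apart by 3.92 percentage points (exact p = 0.33, adjusted p = 0.667). Erythrocyte-like cells were 33.5% and 38.6% on the LY294002 plates and 43.3% and 43.1% on the control plates (exact p = 0.33, adjusted p = 0.667). These cells were defined by globin genes. When the 15 leading genes of that cluster were left out of the clustering, a wider class of 717 cells had erythrocyte progenitor markers highest. It made up 69.7% and 65.7% on the LY294002 plates and 68.0% and 71.9% on the control plates, which overlapped. This class joined clusters of 441 and 276 cells, shared 415 cells with the erythrocyte-like class, and left no HSPC-like cluster. Its shares are therefore not those of erythrocyte-like cells alone. The HSPC-like difference of 2.98 percentage points turned to -5.39 when cells were thinned to 1500 UMIs and to -3.71 without the muscle wells and genes, and the myeloid-like difference was 10.2 without them. The classes were not the same cells in these settings: without muscle the cluster counted as HSPC-like had the thrombocyte/erythrocyte progenitor markers as its highest list, and after thinning a cluster of 114 cells stayed unnamed. With 2 plates in each group no share could pass the threshold.

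**Figure D2:**
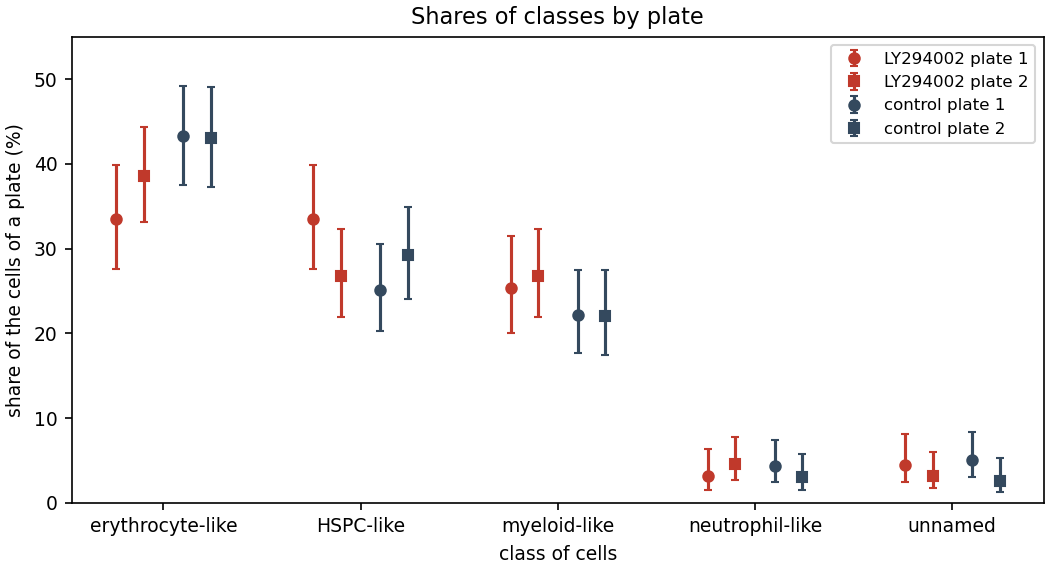
Share of the cells of each plate (%) in each class, with 95% Wilson intervals that cover counting error only, for LY294002 plates 1 and 2 and control plates 1 and 2. Erythrocyte-like shares of the LY294002 plates (33.5% and 38.6%) lie below those of the control plates (43.3% and 43.1%), and HSPC-like shares overlap.

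When all cells of a plate were summed, 1 of 10308 genes tested changed (0.0097% at an adjusted p under 0.05, edgeR's quasi-likelihood test), while 1619 genes (15.7%) had an unadjusted p under 0.05 and DESeq2 called 85. Leaving out 1 plate moved the count to 35 without LY294002 plate 1, 25 without LY294002 plate 2, 334 without control plate 1 and 261 without control plate 2. The gene was pvalb4, a parvalbumin that buffers calcium in muscle. It had 123 and 126 CPM (scaled by TMM, as are all gene levels below unless stated) on the LY294002 plates, against 5.07 and 7.72 CPM on the control plates (log2 fold change 4.26 ± 0.21 SE, adjusted p = 0.0021). On each plate a single well held most of its UMIs, 78.5% and 92.4% on the LY294002 plates and 86.7% and 91.7% on the control plates. It was called in 14 of 14 alternatives that tested it, but it was removed with the muscle genes. Without the muscle wells and genes the only gene called was CABZ01111496.1, whose function is not annotated in the sources used here. It had 187 and 181 CPM on the LY294002 plates and 78.3 and 72.1 CPM on the control plates in the fit of all wells (log2 fold change 1.29 ± 0.13 SE, adjusted p = 0.114), and its groups did not overlap.

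Genes that did not pass the test in the sum of all cells still lay apart by plate. Plates of the groups did not overlap for 48.9% of the genes tested, so that a gap between 2 plates and 2 plates is common here. insig1, which encodes a membrane protein that retains the sterol sensor complex in the endoplasmic reticulum and is itself a target of the sterol factor Srebp, had 25.2 and 31.3 CPM on the LY294002 plates, against 81.1 and 76.6 CPM on the control plates (log2 fold change -1.48 ± 0.17 SE, adjusted p = 0.148). vcp, the ATPase that extracts ubiquitinated proteins for degradation, had 120 and 138 CPM on the LY294002 plates and 253.6 and 239.4 CPM on the control plates (log2 fold change -0.94, adjusted p = 0.148). cebpb, a transcription factor of myeloid cells, had 715 and 590 CPM on the LY294002 plates and 331 and 344 CPM on the control plates (log2 fold change 0.95, adjusted p = 0.148). For none of these did the groups overlap. insig1, vcp, crema, urod and CABZ01111496.1 were chosen after their values were seen.

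Marker genes of the lineages were then read in the sum of all cells, where a change in the make-up and a change within cells cannot be told apart. Of the 8 thrombocyte/erythrocyte progenitor markers none passed the adjusted test, 5 had an unadjusted p under 0.05 in the lower direction (7.84% of all genes), and the median log2 fold change was -0.41, against 0.01 over all genes tested. gata1a, the master factor of the erythroid lineage, had 250 and 273 CPM on the LY294002 plates, against 385 and 389 CPM on the control plates (log2 fold change -0.57, adjusted p = 0.177). urod, an enzyme of heme synthesis, had 245 and 238 CPM on the LY294002 plates and 422 and 384 CPM on the control plates (log2 fold change -0.74, adjusted p = 0.148). klf1, an erythroid activator of globin genes, had 247 and 265 CPM on the LY294002 plates and 291 and 315 CPM on the control plates (log2 fold change -0.24). In all 3 genes the LY294002 plates were below the control plates. Within erythrocyte-like cells gata1a changed by -0.16 (edgeR, adjusted p = 0.574) and klf1 by 0.11 (adjusted p = 0.728). There the 8 markers had a median of -0.02, with 4 above 0 and 4 below. The median was -0.18 in HSPC-like cells and -0.86 in myeloid-like cells, where 5 were tested.

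The erythrocyte markers named by the study did not move as a group. cahz, a carbonic anhydrase of red cells, had 1292 and 1352 CPM on the LY294002 plates, against 1972 and 1958 CPM on the control plates (log2 fold change -0.57, adjusted p = 0.154). alas2, the first enzyme of heme synthesis, had 727 and 860 CPM on the LY294002 plates and 814 and 882 CPM on the control plates, and hbbe2, an embryonic beta globin, had 6570 and 8482 CPM on the LY294002 plates and 6324 and 7560 CPM on the control plates. For alas2 and hbbe2 the groups overlapped. Within erythrocyte-like cells cahz changed by -0.06 on the log2 scale (edgeR, adjusted p = 0.826). myb, an HSPC factor, had 394 and 353 CPM on the LY294002 plates and 333 and 347 CPM on the control plates (log2 fold change 0.14, adjusted p = 0.68), apart by less than the spread between the LY294002 plates.

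Myeloid progenitor markers lay higher on the LY294002 plates without passing the adjusted test. Of 9 markers none passed, 6 had an unadjusted p under 0.05 in the higher direction (7.87% of all genes), and the median log2 fold change was 0.52, against 0.11 with 2 such markers when limma was run on the mean over cells of CPM. crema, a cyclic AMP responsive factor, had 422 and 336 CPM on the LY294002 plates, against 201 and 217 CPM on the control plates (log2 fold change 0.86, adjusted p = 0.148). runx3, a Runt family factor, had 29.8 and 45.9 CPM on the LY294002 plates and 25.0 and 20.9 CPM on the control plates (log2 fold change 0.73). spi1b, which encodes the factor Pu.1, had 46.4 and 86.3 CPM on the LY294002 plates and 51.3 and 46.3 CPM on the control plates and overlapped. mpx, the myeloperoxidase of neutrophils, also overlapped, with 205 and 301 CPM on the LY294002 plates and 292 and 243 CPM on the control plates. Of 19 skin genes tested none passed, 8 lay higher and 1 lower at an unadjusted p under 0.05 (median 0.54, and -0.06 with limma on the mean over cells), with a summed level of 7343 and 8346 CPM on the LY294002 plates and 5576 and 4406 CPM on the control plates. The part of skin RNA in these values was not tested.

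The genes of the PI3K pathway showed no adjusted change, and the activity of PI3K itself was not measured. Of 35 PI3K pathway genes tested, 4 had an unadjusted p under 0.05 in the higher and 1 in the lower direction, with a median log2 fold change of 0.19 (0.03 to 0.58 over 15 alternatives). Of 35 FoxO responsive genes, 4 lay higher and 2 lower by the same count, with a median of 0.07 (-0.09 to 0.26). Of all genes tested 7.87% lay higher and 7.84% lower by that count, so that the counts of these lists are not read as a change.

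Some larger groups of genes lay lower on the LY294002 plates in the sum of all cells, again with none passing the adjusted test. Of all genes tested 7.84% had an unadjusted p under 0.05 in the lower direction and 7.87% in the higher. Of 45 genes of the proteasome, which degrades ubiquitinated proteins, 30 had an unadjusted p under 0.05 in the lower direction and 0 in the higher, with a median log2 fold change of -0.52. Of 90 nuclear genes of the mitochondrial respiratory chain and ATP synthase, 36 lay lower and 0 higher by the same count (median -0.34). Of 52 genes of DNA replication and mitosis, 20 lay lower and 1 higher (median -0.35), and of 66 mitochondrial ribosomal protein genes 13 lay lower and 1 higher (median -0.26). In every one of 15 alternatives the medians of these 4 lists were below 0. Of the 15 mitochondrially encoded genes, 5 lay higher and 0 lower (median 0.27). Within classes the median of DNA replication and mitosis genes was -0.12 in erythrocyte-like, -0.27 in HSPC-like and -0.08 in myeloid-like cells.

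**Figure D3:**
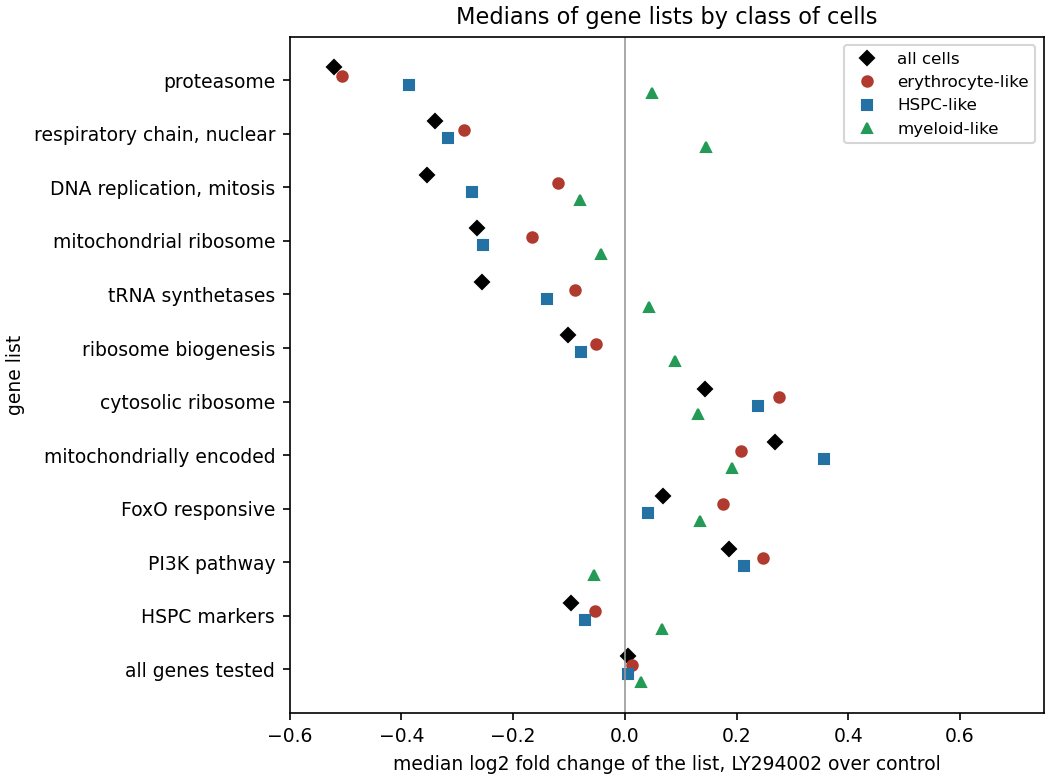
Median log2 fold change (LY294002 over control) of 11 gene lists and of all genes tested, in the sum of all cells and in erythrocyte-like, HSPC-like and myeloid-like cells. The proteasome median is -0.52 in all cells, -0.51 in erythrocyte-like, -0.39 in HSPC-like and 0.05 in myeloid-like cells, while the median over all genes is between 0.01 and 0.03.

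Within erythrocyte-like cells, 122 of 6500 genes tested changed (1.88%, edgeR with Benjamini-Hochberg adjustment). Of these 69 rose (1.06% of genes tested) and 53 fell (0.815%), and 1129 genes (17.4%) had an unadjusted p under 0.05. DESeq2 called 71 genes, 45 of them among the 122. It gave no adjusted p for some genes named below, such as insig1, agr2, hspe1, aifm1 and rpn2. When the counts were scaled by library size alone, without TMM, 307 genes were called, of which 33 rose and 274 fell, and the median of all genes moved to -0.20, against 0.01 with TMM. Directions below are therefore relative to the bulk of genes. With edgeR on cells thinned to 1500 UMIs, 1759 genes could be tested in this class. Of these 34 were called, and 28 of those were among the 122. The count also differed with the clustering and with the muscle wells and genes left out together. With Leiden clustering, which placed all 6 muscle wells in this class, 1 gene was called, and with the leading erythroid genes left out, which did the same, 9 were called. Of the 122 genes 0 were called in the first of these fits and 2 in the second. With the muscle wells and genes removed the counts were 188 in the main clusters, 91 with Leiden clustering and 236 without the leading genes. In all 3 of these fits 55 of the 122 genes were called, 33 higher and 22 lower, and 34 of the 122 were called whichever plate was left out. Those called whichever plate was left out include muscle genes such as pvalb2 and ckma, which were removed from the 3 fits without muscle. The fits without the leading genes were on the wider class, beside which no HSPC-like cluster remained. They are therefore not fits of erythrocyte-like cells alone. The count itself was 308 without LY294002 plate 1, 245 without LY294002 plate 2, 62 without control plate 1 and 122 without control plate 2.

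The genes that rose in erythrocyte-like cells included the linker histone genes h1fx and histh1l and a metallothionein. mt2, a metallothionein that binds zinc and copper, rose to 257 and 280 CPM on the LY294002 plates, against 91.6 and 89.9 CPM on the control plates (log2 fold change 1.57 ± 0.16 SE, adjusted p = 4.06e-05). h1fx, a linker histone, rose to 567 and 599 CPM on the LY294002 plates, against 244 and 252 CPM on the control plates (log2 fold change 1.23 ± 0.13 SE, adjusted p = 5.62e-05). histh1l, another linker histone gene, had 1330 and 1226 CPM on the LY294002 plates and 777 and 759 CPM on the control plates (log2 fold change 0.73, adjusted p = 0.00285). The rest of the list of chromatin and linker histone genes did not follow them. Of 29 genes tested 2 rose and 0 fell, 3 lay higher and 3 lower at an unadjusted p under 0.05 (9.14% and 8.23% of all genes), and the median was -0.08. For mt2, h1fx and histh1l both LY294002 plates were higher, the plates of a group lay close together, and the call held in all 3 fits without muscle genes. Where the muscle wells were kept, all 3 calls were lost with Leiden clustering (edgeR, adjusted p = 0.232, 0.0921 and 0.359 in that order). They were also lost there without the leading erythroid genes (adjusted p = 0.113, 0.0802 and 0.187).

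Other genes that rose have few annotated roles. CR735126.1 rose to 1767 and 1795 CPM on the LY294002 plates, against 766 and 712 CPM on the control plates (log2 fold change 1.27 ± 0.11 SE, adjusted p = 1.68e-05, the lowest of the fit). si:ch211-103n10.5 rose to 1342 and 1246 CPM on the LY294002 plates, against 620 and 552 CPM on the control plates (log2 fold change 1.14, adjusted p = 5.62e-05). CABZ01111496.1, the gene called without muscle genes in the sum of all cells, rose here as well, with 166 and 191 CPM on the LY294002 plates and 98.8 and 72.5 CPM on the control plates (log2 fold change 1.08, adjusted p = 0.00525). All 3 were called in the 3 fits without muscle genes. Where the muscle wells were kept, none of them was called with Leiden clustering (edgeR, adjusted p = 0.088, 0.154 and 0.359 in that order). Without the leading erythroid genes there, CABZ01111496.1 was called (adjusted p = 0.0243) and the others were not (adjusted p = 0.0628 and 0.113). agr2, a protein disulfide isomerase of secretory cells, had 100 and 77.9 CPM on the LY294002 plates and 24.7 and 25.4 CPM on the control plates (log2 fold change 1.81, adjusted p = 0.000358). With the muscle wells kept, agr2 was not called with Leiden clustering (edgeR, adjusted p = 0.154) but was called without the leading erythroid genes (adjusted p = 0.0323). The skin list as a whole, in CPM without TMM, had 841 and 996 CPM on the LY294002 plates and 1029 and 845 CPM on the control plates. Scaled by TMM, the skin genes tested summed to 892 and 1068 CPM on the LY294002 plates and 924 and 791 CPM on the control plates. The groups overlapped in both. Of 5 skin genes tested in this class 1 rose (the keratin krtt1c19e, log2 fold change 0.70, adjusted p = 0.0499), 2 lay higher and 0 lower at an unadjusted p under 0.05 (9.14% and 8.23% of all genes), and the median was 0.48. The part of skin RNA in the value of agr2 was not tested. The largest rises by fold in this class were those of shdb, triobpb and genes without a symbol (log2 fold change 2.04 to 3.78). None of them had over 44 UMIs in these cells on any plate.

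Genes of ribosome assembly and iron uptake were also among those that rose. ddx21, a helicase of ribosome biogenesis, had 282 and 280 CPM on the LY294002 plates, against 139 and 147 CPM on the control plates (log2 fold change 0.97, adjusted p = 0.00229). slc11a2, the transporter that carries iron out of endosomes, had 990 and 1017 CPM on the LY294002 plates and 664 and 658 CPM on the control plates (log2 fold change 0.60, adjusted p = 0.0143). It was called in 2 of the 3 fits without muscle genes, and was not called with library size alone (adjusted p = 0.0644). Of 14 iron handling genes tested slc11a2 alone passed. By an unadjusted p under 0.05, 4 lay higher and 1 lower, as did 9.14% and 8.23% of all genes. The rest of the ribosome biogenesis list did not follow ddx21: of 56 genes tested 1 rose and 1 fell (snu13b, a box C/D protein, log2 fold change -0.88), with a median of -0.05.

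Cytosolic ribosomal protein genes lay slightly and evenly higher in erythrocyte-like cells. Of 79 genes tested 2 rose, 49 had an unadjusted p under 0.05 in the higher direction (9.14% of all genes) and 0 in the lower, and the median log2 fold change was 0.28. rps12 had 5759 and 5826 CPM on the LY294002 plates, against 3998 and 4567 CPM on the control plates (log2 fold change 0.44, adjusted p = 0.043), and rps10 had 3972 and 4170 CPM on the LY294002 plates, against 2666 and 3167 CPM on the control plates (log2 fold change 0.48, adjusted p = 0.0348). The shift is of the size of the scaling: with library size alone the median was 0.06, which was 0.26 above the median of all genes in that fit, and neither gene was called. Of 15 mitochondrially encoded genes tested 3 rose and none fell, while 5 lay higher and 2 lower at an unadjusted p under 0.05. AC024175.4, a mitochondrial RNA with the highest level of that list, had 81988 and 67611 CPM on the LY294002 plates and 47779 and 45097 CPM on the control plates (log2 fold change 0.69, adjusted p = 0.00349), AC024175.17 changed by 0.82 and mt-co3, a subunit of cytochrome oxidase, by 0.46. mt-co3 was called in 1 of the 3 fits without muscle genes and not with library size alone (adjusted p = 0.113). The median of the list was 0.21, against 0.01 for all genes. With library size alone it was -0.01, against -0.20 for all genes, so that the list stayed above the bulk of genes.

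**Figure D4:**
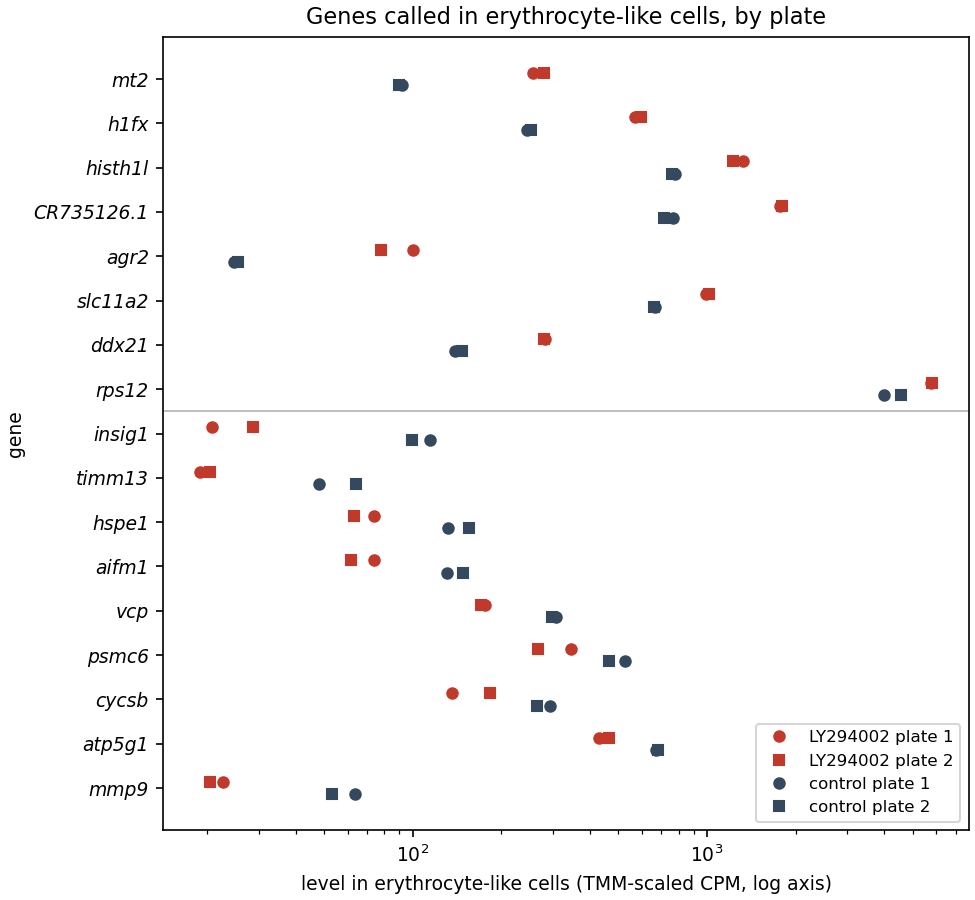
Levels of 17 genes called in erythrocyte-like cells (TMM-scaled CPM, log axis) on LY294002 plates 1 and 2 and control plates 1 and 2, with genes that rose above the line and genes that fell below it. Plates of the groups do not overlap for any gene shown, and the largest fold among those that fell is that of insig1 (20.8 and 28.7 against 115 and 99.2).

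Among the genes that fell in erythrocyte-like cells, insig1 had the lowest adjusted p. It fell to 20.8 and 28.7 CPM on the LY294002 plates, against 115 and 99.2 CPM on the control plates (log2 fold change -2.07 ± 0.24 SE, adjusted p = 0.000129). Both LY294002 plates were below both control plates, and the call held in the 3 fits without muscle genes and whichever plate was left out, but it was lost in 3 of 17 alternatives: with Leiden clustering (adjusted p = 0.16) or without the leading erythroid genes (adjusted p = 0.0593) where the muscle wells were kept, and after thinning. The other genes of sterol synthesis were at low levels. Of 11 genes of that list tested, insig1 alone passed, 3 had an unadjusted p under 0.05 in the lower direction (8.23% of all genes) and 0 in the higher, and the median log2 fold change was -0.61. It was -0.43 without control plate 2 and -0.34 without the leading erythroid genes, and after thinning only insig1 could be tested.

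Some proteasome genes fell in these cells. Of 43 proteasome genes tested 5 fell (psmc6, psma5, psma8, PSMA2 and psmd12) and none rose, 26 had an unadjusted p under 0.05 in the lower direction (8.23% of all genes), and the median log2 fold change was -0.51. psmc6, an ATPase subunit of the regulatory particle, had 344 and 266 CPM on the LY294002 plates, against 528 and 465 CPM on the control plates (log2 fold change -0.71, adjusted p = 0.0213). PSMA2, an alpha ring subunit of the core particle, had 41.6 and 43.7 CPM on the LY294002 plates and 82.1 and 97.3 CPM on the control plates (log2 fold change -1.07, adjusted p = 0.0159). The summed level of the list was 3949 and 3852 CPM on the LY294002 plates and 5530 and 5603 CPM on the control plates. The median lay between -0.72 and -0.47 in 18 alternatives, with 1 gene called without control plate 1 and 1 without control plate 2, 11 without LY294002 plate 1, 11 when muscle wells and genes were removed and 0 with Leiden clustering or without the leading genes where the muscle wells were kept.

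vcp, which delivers substrates to the proteasome, fell to 176 and 171 CPM on the LY294002 plates, against 307 and 298 CPM on the control plates (log2 fold change -0.80, adjusted p = 0.00875). rpn2, a subunit of the oligosaccharyltransferase of the endoplasmic reticulum, had 18.9 and 12.3 CPM on the LY294002 plates and 50.2 and 50.2 CPM on the control plates (log2 fold change -1.72, adjusted p = 0.0113). Chaperones went both ways. hspe1, the co-chaperonin of the mitochondrial matrix, fell by 1.09 on the log2 scale (adjusted p = 0.00573), with 73.7 and 62.9 CPM on the LY294002 plates and 132 and 156 CPM on the control plates. hsp90ab1, a cytosolic chaperone, rose by 0.45 (adjusted p = 0.0337), with 4342 and 4323 CPM on the LY294002 plates and 3107 and 3255 CPM on the control plates, and was not called with library size alone. Of 28 chaperone genes tested 11 lay lower and 2 higher at an unadjusted p under 0.05 (median -0.29), as did 8.23% and 9.14% of all genes.

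Nuclear genes of the respiratory chain were read in the same cells. Of 82 genes of the respiratory chain and ATP synthase 7 fell and none rose, 30 lay lower and 1 higher at an unadjusted p under 0.05 (8.23% and 9.14% of all genes), and the median log2 fold change was -0.29. The number that fell was 0 without control plate 1 and 1 without control plate 2. atp5g1, a subunit of the ATP synthase ring, had 431 and 463 CPM on the LY294002 plates, against 669 and 682 CPM on the control plates (log2 fold change -0.59, adjusted p = 0.0228). cycsb, a cytochrome c, had 136 and 183 CPM on the LY294002 plates and 292 and 264 CPM on the control plates (log2 fold change -0.79, adjusted p = 0.0213). ndufb5, of complex I, and cox7a3, of complex IV, each fell by 0.84 on the log2 scale (adjusted p = 0.0234 and adjusted p = 0.0254). In each of these genes the groups did not overlap, as for 48.4% of all genes tested in this class.

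Single genes of other mitochondrial proteins also fell. aifm1, a flavoprotein of the intermembrane space needed for the respiratory chain, had 73.7 and 61.5 CPM on the LY294002 plates, against 131 and 148 CPM on the control plates (log2 fold change -1.06, adjusted p = 0.00672). phb, a prohibitin of the inner membrane, had 115 and 123 CPM on the LY294002 plates and 211 and 226 CPM on the control plates (log2 fold change -0.87, adjusted p = 0.00873). timm13, an import chaperone, had 18.9 and 20.5 CPM on the LY294002 plates and 47.8 and 63.8 CPM on the control plates (log2 fold change -1.50, adjusted p = 0.0157). aifm1 and phb were called in the 3 fits without muscle genes and timm13 in 2 of them. Among 64 mitochondrial ribosomal protein genes, mrpl14 alone fell (log2 fold change -1.51, adjusted p = 0.0257), and the median of that list was -0.17.

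A few genes of other cells and of signalling completed the list. mmp9, a gelatinase of neutrophils and macrophages, had 22.7 and 20.5 CPM in erythrocyte-like cells on the LY294002 plates, against 63.8 and 53.3 CPM on the control plates (log2 fold change -1.44, adjusted p = 0.0143), and the collagenase mmp13a fell by 1.06 (adjusted p = 0.0213). The summed neutrophil markers in these cells, in CPM without TMM, were 322 and 322 CPM on the LY294002 plates and 453 and 387 CPM on the control plates. Whether their RNA has a part in the result was not tested. arrdc3a, an arrestin domain gene that FoxO factors induce in mammals, had 32.1 and 50.6 CPM on the LY294002 plates and 19.1 and 13.6 CPM on the control plates (log2 fold change 1.38, adjusted p = 0.0474), the only one of 30 FoxO responsive genes tested that passed. It was called in 2 of the 3 fits without muscle genes and in 2 of 4 fits that left out a plate, and not with library size alone (adjusted p = 0.0725). birc2, an inhibitor of apoptosis, rose by 0.80 (adjusted p = 0.0234) and gapdhs, a glycolytic enzyme, fell by 0.63 (adjusted p = 0.0476). Of 24 apoptosis genes tested 1 rose and 1 fell, and 3 lay higher and 3 lower at an unadjusted p under 0.05. Of 17 glycolysis genes 1 fell, and 2 lay higher and 4 lower by that count, as did 9.14% and 8.23% of all genes. In the sum of all cells gapdhs had a log2 fold change of 0.28 (edgeR, adjusted p = 0.368). birc2 was not called with library size alone (adjusted p = 0.0629), and gapdhs was called in 1 of the 3 fits without muscle genes, with -0.19 (adjusted p = 0.434) where the leading erythroid genes were left out as well. The largest falls in size were those of muscle genes, such as pvalb2 with 56.7 and 0 CPM on the LY294002 plates and 668 and 185 CPM on the control plates.

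Globin genes define the erythrocyte-like cluster, so their levels in it are no result. Even so, 4 of the 9 genes tested from the globin list are among the 69 genes counted above as risen. So is HBE1, a globin gene outside that list (edgeR, log2 fold change 0.47, adjusted p = 0.0348). In the 717 cells clustered without the 15 leading genes, hbae1.3 had 10052 and 13590 CPM on the LY294002 plates, against 6278 and 10328 CPM on the control plates (log2 fold change 0.51, adjusted p = 0.356), and hbbe2 had 8712 and 11799 CPM on the LY294002 plates, against 7589 and 8844 CPM on the control plates (log2 fold change 0.32, adjusted p = 0.394). Neither passed the test, and the groups overlapped. These 717 cells reach beyond the erythrocyte-like class, since no HSPC-like cluster remained beside them, so that the make-up of the class enters these levels. cahz had 1749 and 1932 CPM on the LY294002 plates and 2401 and 2321 CPM on the control plates (log2 fold change -0.36, adjusted p = 0.257). Globin paralogs are near-identical copies whose reads the counting could split, so that single globin genes are uncertain.

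In HSPC-like cells 2 of 6288 genes changed (0.0318%), and 741 had an unadjusted p under 0.05 (11.8%). DESeq2 called 24, and the count was 53 without LY294002 plate 1, 1 without LY294002 plate 2, 12 without control plate 1 and 114 without control plate 2. The genes were pvalb4, described above, and CABZ01111496.1, which rose to 215 and 187 CPM on the LY294002 plates, against 55.9 and 62.9 CPM on the control plates (log2 fold change 1.76 ± 0.19 SE, adjusted p = 0.0286). This class held 5 of the 6 muscle wells, and its muscle list, in CPM without TMM, had 8061 and 1073 CPM on the LY294002 plates and 68471 and 17735 CPM on the control plates. Without the muscle wells and genes 70 genes were called, of which 56 rose.

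Myeloid factors were present at low levels in HSPC-like cells and lay higher on the LY294002 plates. cebpb and crema are also markers by which the myeloid-like cluster was named. Their levels here can therefore depend on where the border between the 2 clusters fell, which was not tested beyond the alternatives given below. cebpb had 290 and 150 CPM on the LY294002 plates, against 42.4 and 67.0 CPM on the control plates (log2 fold change 2.02 ± 0.34 SE, adjusted p = 0.157). A single well held 38.1% and 26.9% of its UMIs on the LY294002 plates and 27.7% and 12.1% on the control plates. It was seen in 47 and 29 cells on the LY294002 plates and 23 and 31 cells on the control plates. The part of single wells in its level was not tested. crema had 188 and 161 CPM on the LY294002 plates and 52.3 and 108 CPM on the control plates (log2 fold change 1.13, adjusted p = 0.282). coro1a, an actin-binding protein of leukocytes chosen after its values were seen, had 19.3 and 19.4 CPM on the LY294002 plates and 5.41 and 2.03 CPM on the control plates (log2 fold change 2.30, adjusted p = 0.276). For each the groups did not overlap, as for 44.7% of all genes tested in this class, and of 7 myeloid progenitor markers tested 4 had an unadjusted p under 0.05 in the higher direction (5.68% of all genes, median 1.13). The median of these markers was 0.19 with Leiden clustering (5 tested), 0.68 without control plate 1 and 1.74 without control plate 2. myb had 612 and 561 CPM on the LY294002 plates and 496 and 543 CPM on the control plates (log2 fold change 0.18, adjusted p = 0.737).

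Proteasome and respiratory chain medians were below 0 in HSPC-like cells too, with no gene adjusted. Of 42 proteasome genes 12 lay lower (6.11% of all genes) and 0 higher at an unadjusted p under 0.05 (median -0.39), and of 82 respiratory chain genes 21 lay lower and 0 higher (median -0.32). Of 18 glycolysis genes 8 lay lower and 1 higher (median -0.59), but without the muscle wells and genes 1 of 12 lay lower and 1 higher (median -0.09). insig1 had 23.7 and 41.9 CPM on the LY294002 plates, against 72.2 and 55.8 CPM on the control plates (log2 fold change -0.97, adjusted p = 0.308). Whether the effect on any gene differed between classes was not tested.

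In myeloid-like cells 0 of 4186 genes changed by edgeR, 303 had an unadjusted p under 0.05 (7.24%), and DESeq2 called 18. Without LY294002 plate 1 the count was 117, without control plate 1 it was 45 and without control plate 2 it was 32. mpx had 177 and 473 CPM on the LY294002 plates, against 1196 and 1002 CPM on the control plates (log2 fold change -1.75 ± 0.42 SE, adjusted p = 0.327). It was seen in 7 and 19 cells on the LY294002 plates and 23 and 23 cells on the control plates. A single well held 57.0% of its UMIs on LY294002 plate 1. mpx also leads the neutrophil-like cluster, and in the sum of all cells its groups overlapped. The part of the border between these 2 clusters in its level was not tested. Erythroid RNA in these cells lay lower on the LY294002 plates too, with gata1a at 42.7 and 35.2 CPM on the LY294002 plates and 106 and 133 CPM on the control plates (log2 fold change -1.62, adjusted p = 0.273), and cahz at 64.0 and 37.7 CPM on the LY294002 plates and 188 and 174 CPM on the control plates (log2 fold change -1.84, adjusted p = 0.254). These levels rest on few UMIs. gata1a had 14 and 14 UMIs on the LY294002 plates and 39 and 49 on the control plates. cahz had 21 and 15 UMIs against 69 and 64. In neutrophil-like cells the erythrocyte progenitor markers, in CPM without TMM, summed to 2444 and 1750 against 3255 and 5124. In the unnamed class they summed to 2743 and 2531 against 3811 and 3102. Their groups overlapped in HSPC-like cells, and their order was reversed in erythrocyte-like cells. In myeloid-like cells the proteasome median was 0.05 and the respiratory chain median 0.14. The summed neutrophil markers, in CPM without TMM, were 2839 and 3942 CPM on the LY294002 plates and 9416 and 7351 CPM on the control plates. Neutrophil-like cells had under 20 cells on each plate and were not fitted.

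The effect of LY294002 in the CHT was also set against its effect in the aorta-gonad-mesonephros region (AGM) at 36 hours post fertilization, with 5 LY294002 and 4 control plates of the same reporters and the sort period as a term. The difference of the effects passed for 0 of 14418 genes by edgeR, with 1215 at an unadjusted p under 0.05 (8.43%) and 79 called by DESeq2. insig1 was at 52.8 ± 21.6 CPM on the AGM LY294002 plates (SD, n = 5) and 25.0 ± 15.8 CPM on the AGM control plates (SD, n = 4), a rise (log2 fold change 0.97, adjusted p = 0.0428), while its log2 fold change in the CHT in the same fit was -1.53. The difference of -2.50 ± 0.38 SE had an adjusted p of 0.0685, and between 6.54e-08 and 0.573 over 9 alternatives. The count of genes was 3 without CHT LY294002 plate 1, 4 without control plate 1 and 12 without control plate 2. Stage, tissue, sort day and time in the inhibitor cannot be told apart in this comparison, and within the AGM the LY294002 plates and the control plates were sorted largely on different days.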

How the data were processed

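Cells sorted as kdrl+ cd41-low were processed with SORT-seq (CEL-Seq2) in 384-well plates. The deposited values are estimated counts: the authors counted UMIs per gene and well against the Zv9 transcriptome (BWA, per the submitters' processing notes) and corrected them for UMI collisions, and replicates were not pooled. Counts were summed per plate, overall and per class with at least 20 cells on each plate, and rounded. Total UMIs of cells were 1782510 and 2111252 on the LY294002 plates and 2867908 and 3090641 on the control plates. edgeR 4.0.16 (filterByExpr, TMM, quasi-likelihood test; limma 3.58.1, R 4.3.3) tested genes, with Benjamini-Hochberg adjustment over all genes tested and a threshold of 0.05; DESeq2 1.42.0 was an alternative. In place of RaceID3, clustering was rewritten in Python 3.11.15 (5 clusters, 1 minus Pearson's r, on genes that reached 5 UMIs in 5 or more cells, mitochondrially encoded ones left out); no doublet caller was used, and class names may differ from those of the study, which kept fewer cells. The tests of all cells and of erythrocyte-like cells were also run on simulated counts, with dispersions estimated from the same plates. These counts modelled neither single muscle wells nor a difference in the make-up of a class, so that the run does not cover those limits. Shares were compared by exact permutation.

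The plates, the 38 gene lists and the comparisons were chosen with earlier results of these data known. Genes were named by a rule: the largest changes and highest levels among called genes, the called members of each list (up to 6, otherwise the 4 with the lowest adjusted p in each direction), and genes the study names for the CHT; others were chosen after their values were seen, also in erythrocyte-like cells (mt2, h1fx, histh1l, CR735126.1, si:ch211-103n10.5, agr2, CABZ01111496.1, phb, timm13, vcp, rpn2, mmp13a). A further comparison of the design is not reported here. Symbols came from the plate files and gene name tables.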

Additional observations from a re-analysis of the deposited data

How the results depend on the processing

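Limits of these results are 2 plates in each group, fewer UMIs per cell on the LY294002 plates, muscle RNA that differs between plates, and classes rebuilt from clustering. With 2 plates against 2 no share or depth was able to pass the exact test, and a miss in the tests of genes does not show that levels were alike. No paired analysis was possible because the labels give the plates of the 2 groups no shared replicate numbers. The fits that leave out a plate assume that the lone plate varies like the other group.

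For the values below that moved with a setting the cause was not tested. Without a filter on low counts the genes called were 465 in all cells, 226 in erythrocyte-like, 307 in HSPC-like and 140 in myeloid-like cells and 315 between CHT and AGM. DESeq2 called 85, 71, 24 and 18 in the same order of cells and 79 between CHT and AGM. After thinning to 1500 UMIs the counts were 12, 34, 4 and 1. Library size alone gave 307 in erythrocyte-like and 1 in HSPC-like cells. Without the 2% of cells with most UMIs the counts were 12 in all cells, 53 in erythrocyte-like and 53 in HSPC-like cells, and limma on the mean over cells of CPM called 7 in all cells. With 7 clusters 43 genes were called in erythrocyte-like cells, and with Leiden clustering 1 in erythrocyte-like, 40 in HSPC-like and 10 in myeloid-like cells. The settings without muscle wells and genes or without the leading erythroid genes were chosen after seeing the data: 188 and 70 genes were called in erythrocyte-like and HSPC-like cells without muscle, 9 in erythrocyte-like cells without the leading genes and 236 with both left out. Leaving out 1 plate at a time gave 25 to 334 genes in all cells, 62 to 308 in erythrocyte-like, 1 to 114 in HSPC-like and 0 to 117 in myeloid-like cells and 0 to 12 between CHT and AGM.

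Differences in shares (LY294002 minus control, in percentage points) moved as well, and the classes were not the same cells in each setting. For erythrocyte-like cells the difference was -7.14, and -9.84 with a minimum of 3000 UMIs and -2.26 without the leading erythroid genes, where the class had 717 cells and no HSPC-like cluster remained. For HSPC-like cells it was 2.98, and 11.9 with 7 clusters, where 122 cells were HSPC-like and a cluster of 213 cells led by thrombocyte/erythrocyte progenitor markers stayed unnamed, -5.39 after thinning and -3.71 without muscle wells and genes, where a cluster of 272 cells led by those markers was counted as HSPC-like. For myeloid-like cells it was 3.92, and 2.33 with 7 clusters, 5.36 and 4.76 with a minimum of 1000 and 3000 UMIs, 10.2 without muscle and 2.51 without the leading genes. For neutrophil-like cells it was 0.225, and -1.9 with Leiden clustering and 1.93 after thinning, where the class had 260 cells and no myeloid-like cluster remained.

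Genes that changed sign were all uncalled. In all cells, alas2 had a log2 fold change of 0.09 after thinning. With limma on the mean over cells of CPM, myb had -0.01, runx3 -0.03 and spi1b -0.12. In HSPC-like cells myb had -0.01 after thinning. Leaving out 1 plate at a time, log2 fold changes in all cells lay between -0.25 and 0.02 for alas2, -0.10 and 0.28 for hbbe2, -0.40 and 0.17 for mpx and -0.10 and 0.82 for spi1b.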
